A study of Mus musculus with 16 samples.

Results

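The transcripts of 8 genes were followed in B16F10 melanoma tumors: the DNA topoisomerases Top2a, Top2b, Top1, Top1mt, Top3a and Top3b, and the tyrosyl-DNA phosphodiesterases Tdp1 and Tdp2. The genes were chosen by name, as the targets of etoposide (ETS), the related topoisomerases and the enzymes that free trapped complexes, and all 8 were found among the 45777 genes listed. Each of the 8 had reads in every tumor, between 776 and 39973 per gene and tumor, and entered the test among 16209 genes. B16F10 is a melanoma line from the C57BL/6 strain. Its cells had been implanted under the skin of C57BL/6J mice (lean) or leptin-deficient ob/ob mice (obese) at 6 weeks of age, and bulk tumor RNA was sequenced from 16 tumors, 4 in each of 4 groups. The groups were lean and obese tumors before therapy, which had received no ETS, and lean and obese tumors after 5 intraperitoneal injections of ETS at 20 mg per kg. The ob/ob mice lack leptin from birth, so obesity and the absence of leptin cannot be told apart, and neither can ETS and the growth of the tumor during the course of treatment. Nothing in the labels ties tumors of different groups to each other, so p-values measure the spread between the tumors sequenced.

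Topoisomerases cut DNA to let strands pass and then seal the cut. Type II enzymes (TOP2A and TOP2B) cut both strands of the helix and pass another duplex through the gap, whereas type I enzymes (TOP1, mitochondrial TOP1MT, TOP3A and TOP3B) cut a strand at a time. In each case a tyrosine of the enzyme stays linked to the DNA end until the cut is sealed. ETS is a TOP2 poison that holds this linked state, the cleavage complex, in place, and cells with more TOP2A are known to be more sensitive to it. TDP2 removes TOP2 remnants from 5′ ends, and TDP1 removes mainly TOP1 remnants from 3′ ends. TOP2A is made mostly in S, G2 and M phase and serves in chromosome condensation and segregation, whereas TOP2B is also made in resting cells and acts at active genes and at loop anchors bound by CTCF and cohesin.

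Counts summed to between 47199949 and 61655287 per tumor. All 8 melanocyte markers on the list used were detected, with a summed level between 11300 and 28000 CPM (read counts scaled to a common library size) in each tumor. Host cell markers moved with the groups. The summed level of 10 macrophage markers had a median of 1040 CPM before therapy and 234 CPM after ETS in lean hosts, against 112 and 563 CPM in obese hosts. The 7 fibroblast markers had medians of 1170 and 228 CPM in lean and 276 and 1380 in obese tumors, with 5690 in obese ETS tumor 4, which also had the lowest correlations with the other tumors of its group (0.970 to 0.979). The 5 endothelial markers had medians of 111 and 84.3 CPM in lean and 53.5 and 108 in obese tumors, the 5 adipocyte markers 16.1 and 12.2 against 42.3 and 115, and the 6 T and NK cell markers 25.9 and 0.798 against 0.337 and 1.19. The 3 erythroid markers had medians of 177 and 0.0389 CPM in lean and 747 and 5.73 CPM in obese tumors, so their level was lower after ETS in both hosts, as was that of most members. No marker on these lists was at 0 in all 16 tumors, and their part in the results below was not tested. In bulk RNA, fewer cells of a type and less RNA per cell cannot be told apart. Of 12 p53 target genes, 11 rose after ETS in lean hosts and 10 in obese hosts, where 21.0% and 21.2% of all genes were called higher. DNA breaks were not measured. Before therapy, 8 of them were higher in obese than in lean tumors, beside 13.5% of all genes. Fas was called lower there, with means of 0.214 CPM in obese and 1.32 CPM in lean tumors. After ETS, none of the 12 was called between the hosts, where 5.58% of all genes were. Cdkn1a, which stops the cell cycle, rose by 3.44 ± 0.227 (log2 ± SE, adjusted p = 3.44e-07) in lean and by 1.27 ± 0.209 (adjusted p = 0.000376) in obese tumors. Its mean went from 112 to 1210 CPM in lean and from 520 to 1250 CPM in obese tumors.

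Per transcript length, Top2a was the most abundant member in all 16 tumors. Levels between genes were compared in TPM, which corrects for transcript length and library size. In lean tumors before therapy the means ran from Top2a at 227 TPM over Top1 (56.5), Tdp1 (40.1), Top2b (34.5), Tdp2 (30.7), Top3b (28.7) and Top1mt (22.5) to Top3a at 8.89. The ranges of neighbors did not overlap for Top2a and Top1, Top1 and Tdp1, Tdp1 and Top2b, or Top1mt and Top3a, while those of Top2b and Tdp2, Tdp2 and Top3b, and Top3b and Top1mt overlapped. Obese tumors before therapy followed nearly the same order, with Top2a at 178, Top1 at 62.2, Top2b at 37.0, Tdp1 at 33.7, Tdp2 at 29.0, Top3b at 21.6, Top1mt at 16.7 and Top3a at 6.80 TPM. After ETS the distances shrank. Top2a stood at 70.7 TPM in lean and 69.2 TPM in obese tumors, above every other member in each tumor, and Top3a stayed lowest at 5.10 and 6.03 TPM. The 6 genes between them lay between 16.5 and 31.2 TPM in lean and between 16.1 and 31.9 TPM in obese tumors, and each overlapped its neighbor in the order. Of the TPM summed over the 6 topoisomerases, Top2a made up 59.8% ± 1.99 (SD, n = 4) before therapy and 41.7% ± 2.25 after ETS in lean tumors, against 55.2% ± 2.78 and 40.8% ± 3.88 in obese tumors. The sum itself went from 378 ± 48.2 to 169 ± 31.9 TPM in lean and from 323 ± 12.0 to 168 ± 38.6 TPM in obese tumors.

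**Figure D1:**
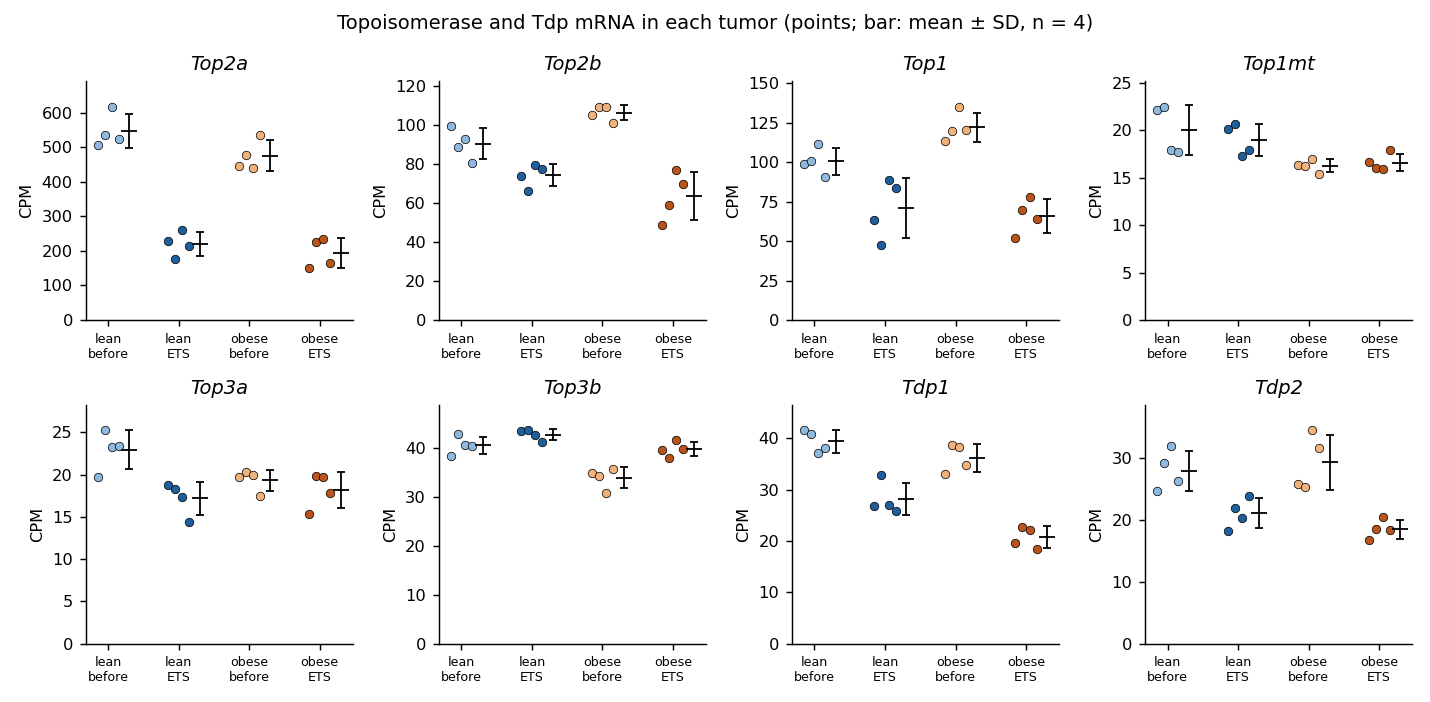
Level of each member in CPM (linear axes from 0) in the 16 tumors, by group. Points are tumors and the black mark beside them is the mean with its SD (n = 4); the Top2a points after ETS, 150 to 259 CPM, all lie under those before therapy, 439 to 618 CPM, in both hosts, whereas the Top1mt points of a host overlap.

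After ETS, most members were lower than before therapy, in both hosts. In lean tumors 5 of 8 members fell (Top2a, Top1, Top3a, Tdp1 and Tdp2) and none rose, by edgeR's quasi-likelihood test at an adjusted p under 0.05. Among all 16209 genes tested, 43.8% were called in lean tumors and 22.8% were called lower. In obese tumors 5 members fell (Top2a, Top2b, Top1, Tdp1 and Tdp2) and 1 rose (Top3b), where 40.2% of all genes were called and 19.0% were called lower. For 6 members in lean tumors all 4 tumors after ETS lay under all 4 before, the called members and Top2b, where 20.3% of all genes did so. In obese tumors this held for the 5 members that fell, against 17.7% of all genes. The median log2 fold change of the members was −0.41 in lean and −0.70 in obese tumors, beside −0.015 and 0.0066 over all genes. The count in lean tumors was 3 without lean tumor 3 before therapy, where Top1 (adjusted p = 0.0596) and Tdp2 (adjusted p = 0.053) were lost, and 6 without lean tumor 4 before therapy. In obese tumors the count was 6 with each tumor left out, including obese ETS tumor 4. With limma on log2(TPM + 1) all 8 members were called lower in lean tumors. There the median over all genes was itself shifted by −0.28, and 84.3% of all calls were lower, against 52.0% with counts.

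**Figure D2:**
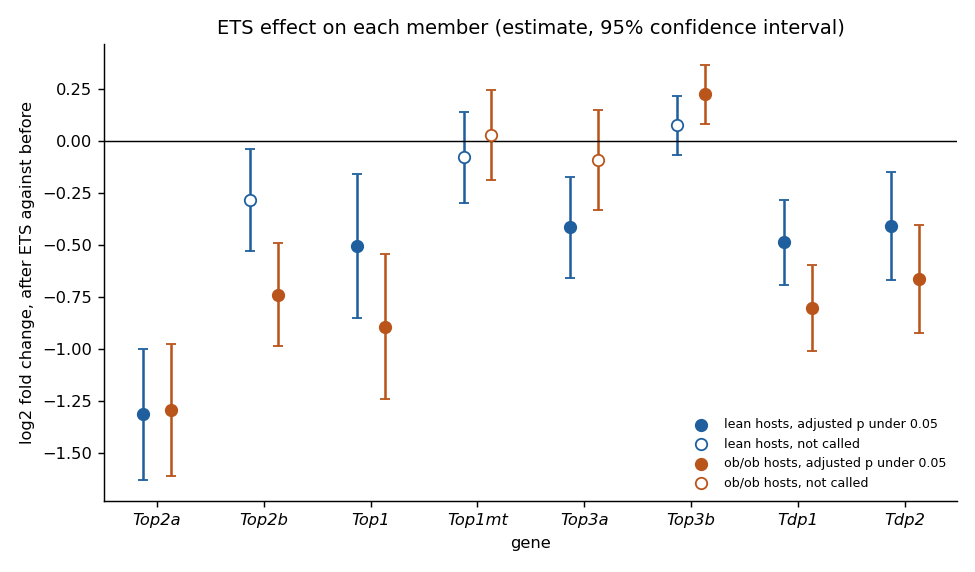
Log2 fold change after ETS against before (vertical axis) for each member, with its 95% confidence interval, in lean (blue) and ob/ob hosts (orange); filled points passed an adjusted p of 0.05. The Top2a estimates of the hosts, −1.31 and −1.29, lie beside each other, and the Top2b estimates, −0.28 and −0.74, lie farther apart.

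Top2a (gene 21973, GRCm38.p6 chr11:98992947-99024199, minus strand), which encodes TOP2A, had 506, 536, 618 and 524 CPM in the 4 lean tumors before therapy and 228, 178, 259 and 214 CPM after ETS. In obese tumors it had 447, 479, 439 and 537 CPM before therapy and 150, 226, 235 and 166 CPM after ETS. The lowest tumor before therapy had 439 CPM and the highest after ETS 259 CPM, so the groups did not overlap in either host. The log2 fold change was −1.31 ± 0.148 (SE) in lean tumors (2.49-fold lower, adjusted p = 1.59e-05) and −1.29 ± 0.148 in obese tumors (2.45-fold lower, adjusted p = 3.63e-05). A larger fall was fitted for 6.27% of all genes in lean and 0.864% in obese tumors. The difference between the effects, lean minus obese, was −0.022 with a 95% interval from −0.46 to 0.42 (adjusted p = 0.956), which leaves room for a difference in either direction. No tumor left out ended the call in either host, with adjusted p up to 0.000114 in lean and 0.000204 in obese tumors. By TPM, Top2a ranked between 529 and 921 among all genes before therapy and between 1556 and 2728 after ETS. A snoRNA of 122 bases lies within its span, and it had a mean count of 1.1.

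The promoters differed among the members. Promoter sequence was matched in RefSeq (GRCm38.p6) for 5 of the 8 members (Top2a, Top2b, Top1, Top3b and Tdp1), and the 250 bases before the transcription start were searched on both strands for 3 motifs. These were the CCAAT box (CCAAT, which reads ATTGG on the other strand), bound by the factor NF-Y; the CHR element (TTTGAA), known from cell cycle genes; and the GC box (GGGCGG), bound by SP1. No matches of different motifs overlapped in the 5 windows. The windows of Top2a and Top2b are shown 5′ to 3′ along the gene because these are the ETS targets, with each CCAAT or ATTGG in capitals. The Top2a window is chr11:99024190-99024439 on the minus strand and the Top2b window chr14:16364956-16365205 on the plus strand.
Top2a: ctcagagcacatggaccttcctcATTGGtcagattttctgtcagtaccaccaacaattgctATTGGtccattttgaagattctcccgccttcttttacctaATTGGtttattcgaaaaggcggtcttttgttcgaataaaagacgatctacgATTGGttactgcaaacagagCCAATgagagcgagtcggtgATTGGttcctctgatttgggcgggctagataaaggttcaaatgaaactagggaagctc
Top2b: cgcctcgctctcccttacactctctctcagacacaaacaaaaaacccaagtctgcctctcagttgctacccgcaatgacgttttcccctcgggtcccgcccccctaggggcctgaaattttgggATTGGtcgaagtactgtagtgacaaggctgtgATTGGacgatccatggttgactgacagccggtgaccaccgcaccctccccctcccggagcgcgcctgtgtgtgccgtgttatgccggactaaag
Top2a held 6 CCAAT boxes and Top2b 2, while Top3b held 1 and Top1 and Tdp1 none. At least 1 was found in 33.8% of 32851 promoter windows of this length, at least 2 in 10.1%, and at least 6 in 19 windows (0.0578%). Among the genes on a list of G2 and mitosis genes, 13 of 15 promoters held at least 1 and 10 held at least 2. CHR elements were found 2 times in Top2a and 1 time in Tdp1, and in 16% of all windows. GC boxes were found 3 times in Top1 and 1 time each in Top2a, Top2b and Tdp1, and in 32.7% of all windows. A match describes the letters in the window, and binding was not measured.

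**Figure D3:**
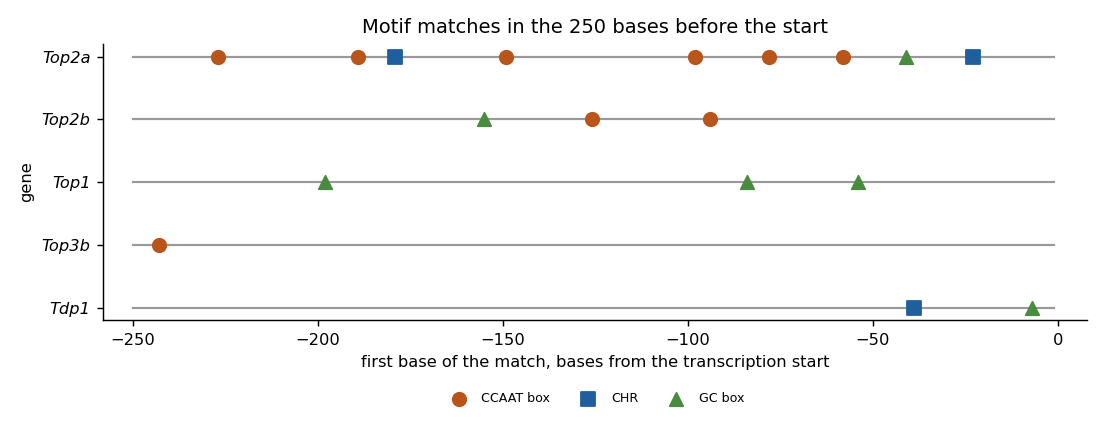
Positions of the CCAAT box (circles), CHR element (squares) and GC box (triangles), on either strand, in the 250 bases before the transcription start of 5 members; the horizontal axis gives bases from the start. The 6 CCAAT boxes of Top2a are spread over the window, Top2b has 2, and Top1 has GC boxes only.

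Top2b (gene 21974, chr14:16365206-16430787, plus strand), which encodes the second ETS target, fell in obese tumors. It had 105, 110, 109 and 101.2 CPM in obese tumors before therapy and 48.7, 59.2, 77.1 and 69.7 CPM after ETS, a log2 fold change of −0.74 ± 0.117 (1.67-fold lower, adjusted p = 0.00027). In lean tumors it had 99.5, 88.8, 92.8 and 80.4 CPM before therapy and 73.9, 66.5, 79.5 and 77.4 CPM after ETS, a log2 fold change of −0.28 ± 0.116 (adjusted p = 0.0597). The lean groups did not overlap, with 79.5 CPM the highest after ETS and 80.4 CPM the lowest before therapy. The lean difference passed the threshold when only the 2 lean groups were fitted (adjusted p = 0.0264), with the exact test (adjusted p = 0.022) and without lean tumor 4 before therapy (adjusted p = 0.046). With limma on log2(TPM + 1) the lean log2 fold change was −0.63 (adjusted p = 0.0063), beside a median of −0.275 over all genes. The difference between the effects was 0.46 with a 95% interval from 0.11 to 0.81, and passed an unadjusted p (0.0136) but not the adjusted p (0.0703). It was called without obese ETS tumor 3 (0.56, adjusted p = 0.0208), and reached an adjusted p of 0.164 without obese ETS tumor 1. With limma on log2(TPM + 1) the difference was 0.19 (adjusted p = 0.668). Relative to the median of all genes it was 0.35, which was not tested.

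The balance of the ETS targets moved with the fall of Top2a. In TPM, there were 5.49, 6.53, 7.19 and 7.04 Top2a transcripts for each Top2b transcript in lean tumors before therapy and 3.34, 2.88, 3.52 and 2.98 after ETS, means of 6.56 ± 0.768 and 3.18 ± 0.300 (SD, n = 4). In obese tumors the ratio was 4.58, 4.72, 4.34 and 5.73 before therapy and 3.33, 4.12, 3.29 and 2.57 after ETS, means of 4.84 ± 0.613 and 3.33 ± 0.634. Before therapy 3 of the 4 lean tumors lay above every obese tumor, and after ETS the hosts overlapped. These ratios are descriptions and were not tested.

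**Figure D4:**
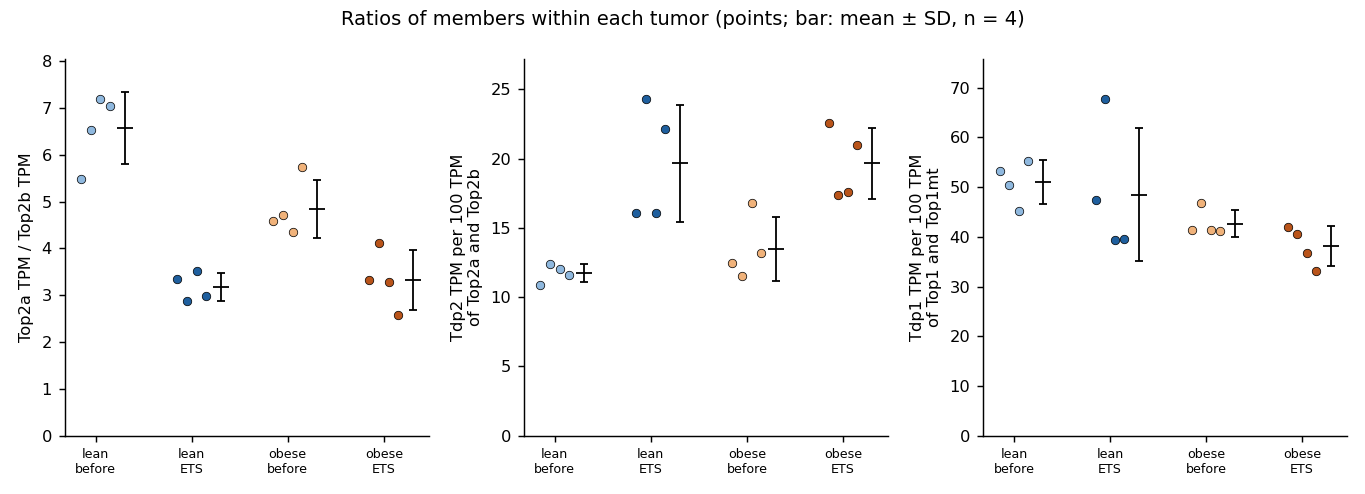
Ratios within each tumor from TPM values (linear axes from 0): Top2a to Top2b (left), Tdp2 per 100 TPM of Top2a and Top2b (middle) and Tdp1 per 100 TPM of Top1 and Top1mt (right). Points are tumors and the black mark is the mean with its SD (n = 4); the Top2a to Top2b points before therapy all lie above those after ETS of the same host, and Tdp2 per TOP2 transcript is higher after ETS in obese tumors and in lean tumors.

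Top1 (gene 21969, chr2:160645897-160722764, plus strand) encodes the nuclear type I enzyme that relaxes DNA ahead of polymerases. It had 98.9, 100.9, 112 and 90.9 CPM in lean tumors before therapy and 63.5, 47.8, 88.9 and 83.5 CPM after ETS, a log2 fold change of −0.50 ± 0.163 (1.42-fold lower, adjusted p = 0.0207). In obese tumors it had 113, 120, 135 and 121 CPM before therapy and 51.8, 69.5, 78.1 and 64.1 CPM after ETS, a log2 fold change of −0.89 ± 0.164 (1.85-fold lower, adjusted p = 0.000794). The groups of each host did not overlap, and the lean tumors after ETS were the most spread, from 47.8 to 88.9 CPM. A lncRNA (Gm52567) that has no count here overlaps Top1 by 549 bases, and whether the counting used strand is not known. The lean call was lost without lean tumor 3 before therapy (adjusted p = 0.0596), lean ETS tumor 1 (0.0678) or lean ETS tumor 2 (0.0612). The difference between the effects was 0.39 with an interval from −0.10 to 0.88 (adjusted p = 0.277).

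Top1mt (gene 72960, chr15:75657033-75678800, minus strand), which encodes the mitochondrial enzyme from a nuclear gene, showed no called change. It had 22.1, 22.5, 17.9 and 17.7 CPM in lean tumors before therapy and 20.1, 20.6, 17.3 and 17.9 CPM after ETS, a log2 fold change of −0.078 with an interval from −0.30 to 0.14 (adjusted p = 0.558). In obese tumors it had 16.4, 16.2, 17.0 and 15.4 CPM before therapy and 16.6, 15.98, 15.9 and 17.9 CPM after ETS, a log2 fold change of 0.030 with an interval from −0.19 to 0.25 (adjusted p = 0.843). The groups of each host overlapped. Of 9 other genes that maintain mitochondrial DNA, 3 rose in lean tumors (Tfb2m, Twnk and Tefm, by 0.46, 0.22 and 0.33) and 1 fell (Polg2, −0.78), and 4 fell in obese tumors (Ssbp1, Mgme1, Tfam and Polg2, by −0.54, −0.45, −0.37 and −0.57). Of all genes 43.8% were called in lean and 40.2% in obese tumors, so the calls in either direction on this list lie near that share. By direction, 21.0% of all genes were called higher in lean and 19.0% lower in obese tumors. Both are smaller shares than on this list. None of the 9 was called as a difference between the ETS effects of the hosts, where 16.4% of all genes were. With limma on log2(TPM + 1) the rises of Tfb2m (0.080), Twnk (−0.13) and Tefm (−0.059) were not called.

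Top3a and Top3b, the type I enzymes that untangle recombination intermediates (TOP3A, with the BLM helicase) and act on RNA as well as DNA (TOP3B, with TDRD3 and FMRP), were called in different hosts. Top3a (gene 21975, chr11:60738209-60777365, minus strand) had 19.7, 25.3, 23.3 and 23.4 CPM in lean tumors before therapy and 18.8, 18.3, 17.4 and 14.4 CPM after ETS, a fall of log2 −0.42 ± 0.114 (1.33-fold lower, adjusted p = 0.00865). In obese tumors it had 19.7, 20.3, 19.96 and 17.5 CPM before therapy and 15.3, 19.8, 19.7 and 17.9 CPM after ETS, a log2 fold change of −0.091 with an interval from −0.33 to 0.15 (adjusted p = 0.552). The lean groups did not overlap and the obese groups did, but the difference between the effects, −0.32 with an interval from −0.67 to 0.017, was not called (adjusted p = 0.189).

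Top3b (gene 21976, chr16:16870722-16892986, plus strand) was the member that rose, in obese tumors. It had 35.1, 34.3, 30.9 and 35.9 CPM before therapy and 39.7, 38.1, 41.6 and 39.8 CPM after ETS there, a log2 fold change of 0.23 ± 0.0665 (adjusted p = 0.0144). In lean tumors it had 38.4, 42.9, 40.7 and 40.5 CPM before therapy and 43.6, 43.7, 42.7 and 41.2 CPM after ETS, a log2 fold change of 0.076 ± 0.0663 (adjusted p = 0.37). The difference between the effects, −0.15 with an interval from −0.35 to 0.049, was not called (adjusted p = 0.304). The obese groups did not overlap, but the call was lost with only the 2 obese groups in the fit (adjusted p = 0.0584), without the filter on low counts (0.0517), with the exact test (0.115) and with limma on TPM (0.337). Fibroblast and macrophage markers rose in the same tumors, as given above. Of the 5 TOP3 partner genes (Blm, Rmi1, Rmi2, Tdrd3 and Fmr1), 4 fell in lean and 5 in obese tumors, with medians of −0.86 and −0.80. Over all genes, 22.8% and 19.0% were called lower. In obese tumors the calls of Tdrd3 (adjusted p = 0.0572 with DESeq2's size factors) and Rmi1 (0.0559 with limma on TPM) were each lost under another scaling. Rmi2, a subunit of the BLM complex, fell by −1.27 and −1.44, Blm by −0.86 and −0.80, and Fmr1, which encodes FMRP, by −1.10 and −0.99 in lean and obese tumors.

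Both Tdp genes fell in both hosts. Tdp1 (gene 104884, chr12:99884515-99955223, plus strand) had 41.6, 40.9, 37.1 and 38.1 CPM in lean tumors before therapy and 26.9, 32.9, 26.99 and 25.9 CPM after ETS, a log2 fold change of −0.49 ± 0.0964 (the level decreased by 28.6%, adjusted p = 0.00113). In obese tumors it had 33.0, 38.6, 38.4 and 34.8 CPM before therapy and 19.6, 22.8, 22.2 and 18.4 CPM after ETS, a log2 fold change of −0.80 ± 0.097 (1.74-fold lower, adjusted p = 4.55e-05). Neither pair of groups overlapped. The difference between the effects was 0.32 with an interval from 0.027 to 0.61, which passed an unadjusted p (0.0342) but not the adjusted p (0.13). Tdp1 per 100 TPM of Top1 and Top1mt in lean tumors was 51.1 ± 4.41 before therapy and 48.5 ± 13.4 after ETS, against 42.6 ± 2.72 before therapy and 38.1 ± 3.96 after ETS in obese tumors, with overlapping ranges in each host.

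Tdp2 (gene 56196, chr13:24831659-24842153, plus strand), which encodes the enzyme that acts on TOP2 remnants, had 24.6, 29.2, 31.9 and 26.2 CPM in lean tumors before therapy and 18.2, 22.01, 20.3 and 23.9 CPM after ETS, a log2 fold change of −0.41 ± 0.123 (1.33-fold lower, adjusted p = 0.0145). In obese tumors it had 25.8, 25.3, 34.5 and 31.7 CPM before therapy and 16.7, 18.5, 20.5 and 18.3 CPM after ETS, a log2 fold change of −0.66 ± 0.123 (1.58-fold lower, adjusted p = 0.000867). Neither pair of groups overlapped, and the lean call was lost without lean tumor 3 before therapy (adjusted p = 0.053). Tdp2 per 100 TPM of Top2a and Top2b was higher after ETS, at 10.9, 12.4, 12.0 and 11.6 before and 16.1, 24.3, 16.1 and 22.1 after ETS in lean tumors. The obese values were 12.5, 11.5, 16.8 and 13.2 before and 22.6, 17.4, 17.6 and 21.0 after ETS. No group overlapped with its counterpart in the same host, although in obese tumors the gap was from 16.8 to 17.4.

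No member was called as a difference between the ETS effects of the hosts, by edgeR's quasi-likelihood test, where 16.4% of all genes were called. DESeq2 called none either. At an unadjusted p under 0.05, 2 of 8 members passed (Top2b and Tdp1), beside 30.1% of all genes. The estimates of Top2b, Top1, Tdp1 and Tdp2 were positive, which is a larger fall in obese tumors. Those of Top2a, Top1mt, Top3a and Top3b were negative. The sign turned for Top2a with filterByExpr (0.0093). It also turned for Tdp2 with limma on log2(TPM + 1) (−0.037), but not relative to the median of all genes (0.122). The median over the members was 0.12 and over all genes 0.052.

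Before therapy, 2 of 8 members differed between obese and lean tumors, where 26.4% of all genes did. Top3b was lower in obese tumors by log2 −0.25 ± 0.0665 (adjusted p = 0.0105), with 30.9 to 35.9 CPM against 38.4 to 42.9 CPM. Top1mt was lower by −0.30 ± 0.102 (adjusted p = 0.039), with 15.4 to 17.0 CPM against 17.7 to 22.5 CPM. The Top1mt call was lost without lean tumor 1 (adjusted p = 0.0974) or 2 (0.126) and without obese tumor 1 (0.0678), 2 (0.0702), 3 (0.0556) or 4 (0.107). The obese tumors lay above all lean tumors in Top2b (0.23 ± 0.116, adjusted p = 0.151) and Top1 (0.28 ± 0.162, adjusted p = 0.223), without a call. Top2a differed by −0.20 with an interval from −0.51 to 0.11 (adjusted p = 0.342).

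After ETS, 1 of 8 members differed between the hosts, where 5.58% of all genes did. Tdp1 was lower in obese tumors by log2 −0.44 ± 0.0967 (1.36-fold, adjusted p = 0.0217), with 18.4 to 22.8 CPM against 25.9 to 32.9 CPM. The call was lost without obese ETS tumor 4 (−0.38, adjusted p = 0.0621), the tumor with the highest fibroblast markers, with only the 2 groups in the fit (adjusted p = 0.104) and with limma on log2(TPM + 1) (−0.283, adjusted p = 0.104). Top2a differed by −0.18 with an interval from −0.49 to 0.13 (adjusted p = 0.474), and Top2b by −0.22 with an interval from −0.47 to 0.025 (adjusted p = 0.249).

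Genes that work with TOP2A on chromosomes fell with it. Of 8 condensin genes, which fold mitotic chromosomes, 7 fell in lean and 7 in obese tumors, where 22.8% and 19.0% of all genes were called lower, with median log2 fold changes of −0.81 and −0.97 beside −0.015 and 0.0066 over all genes. Ncapg fell by −0.88 and −1.46, Ncapg2 by −1.23 and −1.14, and Smc4 by −1.59 and −1.87. Ncaph2 was the gene not called in either host. Of 18 G2 and mitosis genes, 17 fell in lean (median −0.59) and 18 in obese tumors (median −0.91), among them Ccna2, which encodes cyclin A2 (−0.89 and −1.20), Bub1 (−0.80 and −1.001) and Birc5 (−0.68 and −0.83). Only Mki67 and Cenpf in lean tumors, and these with Kif11 in obese tumors, had a larger fitted fall than Top2a. Of 12 S phase genes, 11 fell in lean (median −0.69) and 12 in obese tumors (median −0.73), including Pcna, the polymerase clamp (−0.69 and −0.90), and Mcm3 of the replicative helicase (−0.74 and −0.76). On these 3 lists, edgeR's quasi-likelihood test called Ncapg (0.59, adjusted p = 0.0434) and Cdk1 (0.48, adjusted p = 0.0328) as differences between the ETS effects. Of all genes 16.4% were called there. With limma on log2(TPM + 1) neither was called (0.28, adjusted p = 0.51, and 0.19, adjusted p = 0.468). Ncapg was also lost with DESeq2's size factors (adjusted p = 0.0565). The log2 CPM of Top2a minus the mean log2 CPM of the G2 and mitosis genes went from 2.44 ± 0.0732 to 1.83 ± 0.156 in lean and from 2.08 ± 0.129 to 1.73 ± 0.125 in obese tumors (SD, n = 4). Thus Top2a was lower after ETS also relative to these genes, with 2.38 to 2.53 before against 1.65 to 2.0 after in lean, and 1.89 to 2.17 against 1.56 to 1.85 in obese tumors.

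CTCF and cohesin genes, which mark the sites where TOP2B acts, also fell, 7 of 8 in lean (median −0.51) and 8 of 8 in obese tumors (median −0.70). The shares called lower over all genes were 22.8% and 19.0%. Stag1 fell by −0.54 and −0.83, Rad21 by −0.49 and −0.72, and Smc3 by −0.90 and −1.23. Stag2, a cohesin subunit, was the gene not called in lean tumors (−0.12, adjusted p = 0.314), fell in obese tumors (−0.77, adjusted p = 6.18e-05) and was called as a difference between the ETS effects of the hosts (0.64 ± 0.136, adjusted p = 0.00463), which was lost with limma on log2(TPM + 1) (0.36, adjusted p = 0.286).

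**Figure D5:**
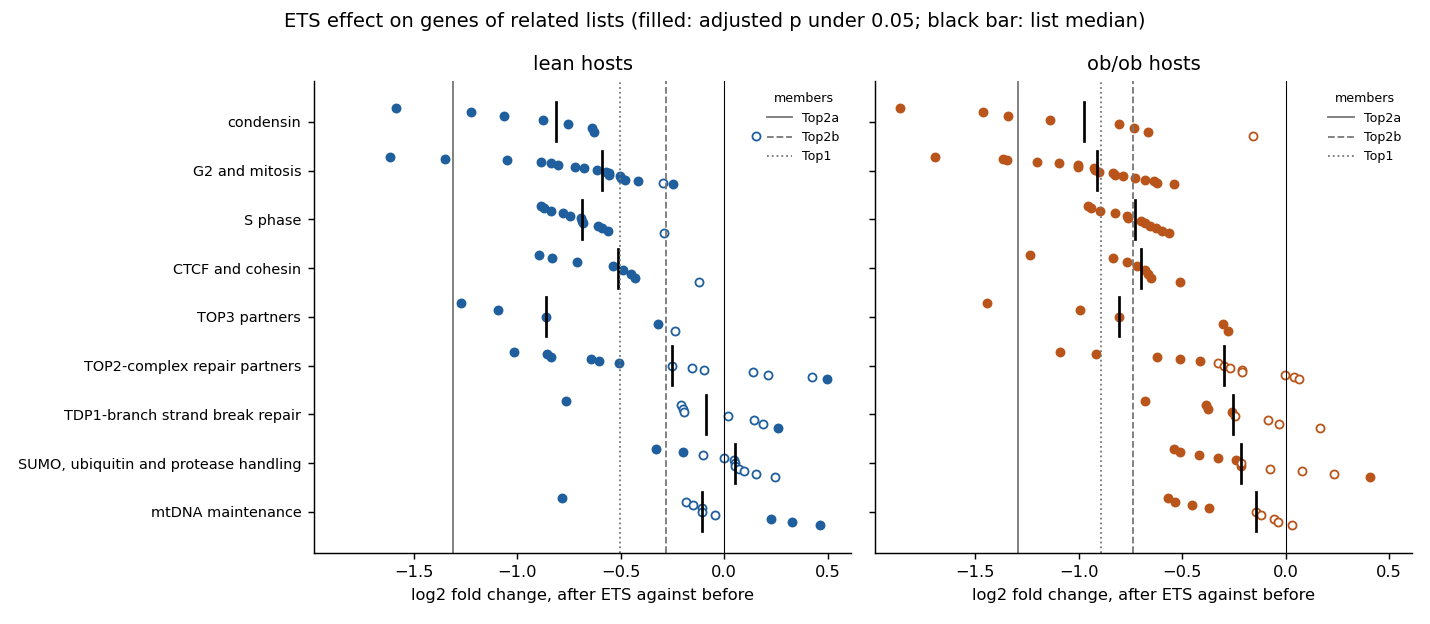
Log2 fold change after ETS (horizontal axis) of the genes of 9 lists in lean (left) and ob/ob hosts (right); points are genes, filled where the adjusted p was under 0.05, black bars are list medians, and vertical gray lines are Top2a, Top2b and Top1. Condensin, G2 and mitosis, S phase, CTCF and cohesin, and TOP3 partner genes lie mostly below 0, and 2 genes of the G2 and mitosis list in lean and 3 in obese tumors lie beyond Top2a.

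The repair genes that act beside the Tdp enzymes moved less evenly. Of 13 partners in the repair of TOP2-linked ends, 6 fell and 1 rose in lean tumors, and 5 fell in obese tumors, with medians of −0.25 and −0.30. Of all genes 43.8% were called in lean and 40.2% in obese tumors, so the calls in either direction lie near that background. Called lower were 22.8% and 19.0% of all genes, a smaller share than on this list. Mre11a (−0.51 and −0.41), Nbn (−0.84 and −1.09) and Rbbp8, which encodes CtIP (−0.64 and −0.92), fell in both hosts. Xrcc5, which encodes Ku80, rose in lean tumors (0.50, adjusted p = 0.0199) and had 0.066 in obese tumors (adjusted p = 0.776). Zfp451, whose product is a partner of TDP2, had −0.16 and −0.27 and was not called in either host. Of 8 genes of the strand break repair that follows TDP1, Parp2 fell (−0.77) and Xrcc1 rose (0.26) in lean tumors, and 4 fell in obese tumors, Parp1 (−0.38), Parp2 (−0.68), Aplf (−0.37) and Lig3 (−0.26). None of the genes on these lists was called as a difference between the ETS effects of the hosts, where 16.4% of all genes were. With limma on log2(TPM + 1), Xrcc5 (0.17) and Xrcc1 (−0.12) were not called in lean tumors.

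Of 11 genes of SUMO, ubiquitin and protease handling of trapped topoisomerases, 2 fell in lean tumors (Rnf4, −0.20, and Topors, −0.33, not called with DESeq2's size factors, adjusted p = 0.0633), while 6 fell and 1 rose (Ddb1, 0.41) in obese tumors. The shares called lower over all genes were 22.8% in lean and 19.0% in obese tumors, so the falls in lean tumors lie near that share. Sumo2, which encodes a SUMO protein, had −0.0039 in lean and fell by −0.54 in obese tumors, and was called as a difference between the ETS effects of the hosts (0.54 ± 0.122, adjusted p = 0.00733). With limma on log2(TPM + 1) this difference was 0.26 and was not called (adjusted p = 0.136). Sprtn, which encodes the protease that digests DNA-linked proteins, had −0.10 and 0.079 and was not called.

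Across the 16 tumors, the members also varied together to different degrees. Among the 13314 other genes with a mean of at least 1 CPM, the log2 CPM of Top2a was most like that of Atad2 (Pearson r = 0.992), Cdca2 (0.986) and Spag5 (0.986). Within groups, after the group means were removed, these were 0.925, 0.866 and 0.912. For Top2b the closest gene was Ccdc66 (0.963, within groups 0.920), followed by Stag2 (0.957, within groups 0.860). For Top1 it was Mphosph8 (0.978, within groups 0.937), for Tdp1 Rfc5 (0.986, within groups 0.896), for Tdp2 Srsf7 (0.966, within groups 0.900), for Top3a Dgcr8 (0.910, within groups 0.790), for Top1mt Tsr2 (0.917, within groups 0.817) and for Top3b C4a (0.893, within groups 0.426). Among the members, Top2b and Top1 were the pair with the highest correlation (0.907, within groups 0.692), and Top1 and Top3b the pair with the lowest (−0.646, within groups −0.233). Tdp1 and Top2a correlated at 0.870 over all tumors and at 0.039 within groups. These values describe 16 tumors in 4 groups that share the ETS effect and the scaling of each library.

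Transcript length moved with the fold changes in lean tumors and between hosts. Over the 15042 tested genes with a GENCODE transcript length (92.8%), the median log2 fold change after ETS was 0.20 in the shortest quartile (up to 1802 nucleotides) and −0.21 in the longest (from 4611 nucleotides) in lean tumors, against −0.0098 and −0.015 in obese tumors. Top2a (5221 nucleotides) and Top2b (10335 nucleotides) are in the longest quartile, Top1, Top3a, Top3b and Tdp1 in the third (median −0.063 in lean and 0.017 in obese tumors), and Top1mt and Tdp2 in the second (0.036 and 0.055). The lean estimate of Top2b, −0.28, was near the median of its quartile, −0.21, and the obese estimate, −0.74, was not near its median, −0.015. In the difference between the effects the median was 0.25 in the shortest and −0.12 in the longest quartile. For obese against lean tumors these medians were 0.20 and −0.072 before therapy, and −0.0255 and 0.077 after ETS. The estimates of Top2a were below the medians of its quartile in both hosts. The part of length in these results was not tested.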

How the data were processed

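Poly(A) RNA of 16 B16F10 tumors was sequenced as 101 bp paired ends from stranded TruSeq libraries. The authors aligned the reads to mm10 with HISAT2 2.1.0 and quantified genes with StringTie 2.1.3b. The deposited counts are raw whole numbers for each gene. The TPM values were made by the authors in the same step, relative to transcript length and library size. The 16 deposited FPKM columns were not used. Whether counting used the strand is not given in the sources used here.

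Genes without reads in 1 or more tumors (29568 of 45777) were excluded, as in the study. The remaining 16209 were scaled by TMM and tested with edgeR 4.0.16 (R 4.3.3), by the quasi-likelihood test in a fit of 4 group means over all 16 tumors, with Benjamini-Hochberg adjustment over all genes and a threshold of 0.05. CPM use TMM-scaled totals, log2 CPM a prior count of 2. SE is the log2 fold change over the root of F. The study's exact test on counts with 1 added was an alternative, as were DESeq2 1.42.0, its size factors, no filter, filterByExpr, limma 3.58.1 on log2(TPM + 1) and log2(TPM + 0.1), only the groups compared, the replicate number as a block, and each tumor left out. The members, gene lists, markers and motifs were chosen with earlier results of these data known. The text names all members, and of each list those with the lowest adjusted p (up to 3) and those a sentence turns on. The single values of some list genes are not reported here. The member correlations, the ratio without each tumor, transcript length and the split of calls were chosen after seeing the data.

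Tumors of a group correlated at 0.970 to 0.992, and no pair differed by as little as sampling noise. Coordinates come from the RefSeq table of GRCm38.p6, matched on gene identifiers for 45679 genes, and transcript lengths from GENCODE by symbol. Of the 101-base stretches of the members' transcripts, 0.241% of those of Top2a occur in another gene, and 0 of those of the others.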

Additional observations from a re-analysis of the deposited data

Results flagged for a closer look

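Tdp1 in lean ETS tumor 2 stood apart from its group, with 32.9 CPM against 25.9 to 26.99 CPM in the other 3 tumors. The gap was 0.838 of the range of the group, above the 95% limit of Dixon's test for 4 samples. Of 32 groups checked (8 members in 4 groups) this was the 1 found, and chance gives such a gap in about 1 in 20 groups. Without this tumor the lean ETS effect on Tdp1 was −0.575 in place of −0.486, on the log2 scale, and remained called (adjusted p = 0.00046 over all genes by edgeR). The difference between the hosts after ETS was −0.366 without it.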

How the results depend on the processing

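Over 712 recomputed log2 fold changes of the members, 660 kept their direction and their side of the threshold, 21 lost the call, 9 gained it and 22 changed sign, the last all where the member was not called by the quasi-likelihood test on all tumors. With limma on log2(TPM + 1), 8 members were called in lean tumors, as with log2(TPM + 0.1), and 0 between hosts after ETS. With log2(TPM + 1) the median over all genes shifted by −0.275 (lean), −0.0517 (obese), −0.159 (difference), −0.0775 (before therapy) and 0.102 (after ETS). With log2(TPM + 0.1) the shifts were −0.362, −0.0814, −0.207, −0.106 and 0.137 in the same order. The sign changed on both scales for Top3b in lean tumors (−0.298 and −0.308), Top1mt in obese tumors (−0.0591 and −0.0627), Tdp2 in the difference (−0.037 and −0.0368) and before therapy (−0.0712 and −0.0731), and Top1 (0.0641 and 0.0671) and Top3b (0.0455 and 0.0469) between hosts after ETS. Relative to the median, Top3b in lean tumors had −0.0231 and 0.0536, and Top1mt in obese tumors −0.00742 and 0.0186. Tdp2 had 0.122 and 0.17 in the difference and 0.00628 and 0.0326 before therapy. Between hosts after ETS, Top1 had −0.0379 and −0.0698 and Top3b −0.0564 and −0.09. Among list genes it changed for Xrcc1 (−0.122), Tefm (−0.0591) and Twnk (−0.13) in lean tumors. With filterByExpr the difference for Top2a was 0.00934. Without a filter, 1 member differed before therapy. Between hosts after ETS, 904 genes were called, against 450 without a filter, 2054 with DESeq2 and, with only the 2 groups fitted, 66 genes and 0 members. With a tumor left out, the members called ranged from 3 to 6 (lean), 0 to 1 (difference), 1 to 2 (before therapy) and 0 to 1 (after ETS), and all genes called after ETS from 186 to 1347. The log2 fold changes that changed sign ranged from −0.00216 to 0.0532 (Top1mt, obese), −0.161 to 0.083 (Top2a, difference), −0.0211 to 0.136 (Tdp2, before therapy) and −0.265 to 0.0206 (Top1, after ETS). The cause was not tested.

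With the replicate number as a block, 5, 6, 0, 2 and 1 members were called in the 5 comparisons, as without it, and 1683 genes between hosts after ETS. Same-numbered tumors deviated together (r over 0.1) in 7 of 16 pairs, with r up to 0.45, and in no comparison in all 4. With the block 7754 genes were called in lean tumors, against 7099 without it, and 7151 against 6517 in obese tumors. Whether the numbers pair tumors was not tested. With 4 tumors a group, differences such as that of Top2b between hosts lie near the threshold.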
